A study of Homo sapiens with 24 samples.

Results

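TXNIP, the thioredoxin-interacting protein, and ARRDC4 are alpha-arrestins, and the set described here joins them with MLX and MLXIP, the transcription factors known to drive both genes when glucose is plentiful. Members were taken as the rows of the deposited array table annotated to these 4 genes, of 17760 named genes in all. The members were chosen by the log2 signals of TXNIP and ARRDC4 over these same 24 arrays, together with the factors that regulate both, so their own differences between times are given as a description and carry no test. H1, an established human embryonic stem cell line, was the single line studied. The cells had been grown on Matrigel in mTeSR, dissociated to single cells, plated densely and brought to confluency. For neural induction the medium became DMEM/F12 with knockout serum replacement (KSR), glutamine, nonessential amino acids and beta-mercaptoethanol, renewed daily, with dorsomorphin, also called compound C, an inhibitor of type I BMP receptors and of AMPK. The 6 groups were H1 cells at 0, 12, 24, 36, 48 and 72 h of dorsomorphin induction, each with 4 arrays numbered as replicates 1 to 4.

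Alpha-arrestins are adaptor proteins that bring membrane proteins to ubiquitin ligases. TXNIP lowers glucose uptake by promoting removal of glucose transporters from the cell surface, and it also binds reduced thioredoxin. When glucose 6-phosphate accumulates, heterodimers of MLX with MLXIP (also called MondoA) or with MLXIPL (also called ChREBP) bind carbohydrate response elements, which are pairs of E-box sites, in the promoters of TXNIP and ARRDC4. TXNIP mRNA is short-lived and is widely used as a readout of this glucose response.

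Because the textbook site is a pair of E-box sites 5 bases apart, the promoters of the members were searched for it and those of both arrestins are shown. The windows run from 250 bases before to 50 bases after the annotated start, are taken from RefSeq on GRCh38.p14, and were found for 4 of 4 members. TXNIP lies on the minus strand and its window at the outer start is chr1:145996530-145996829. RefSeq gives TXNIP another start, whose window chr1:145995695-145995994 held 0 matches to CACGNG and is not printed. ARRDC4 lies on the plus strand and its window is chr15:97960453-97960752. Capitals in both sequences mark every match to CACGNG on either strand, and overlapping matches are merged.
TXNIP: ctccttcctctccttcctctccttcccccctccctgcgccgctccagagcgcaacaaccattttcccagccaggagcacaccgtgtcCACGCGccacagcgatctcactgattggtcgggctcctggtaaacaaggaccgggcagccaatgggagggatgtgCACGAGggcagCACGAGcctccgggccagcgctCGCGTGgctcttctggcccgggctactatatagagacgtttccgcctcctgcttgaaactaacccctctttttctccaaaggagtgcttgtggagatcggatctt
ARRDC4: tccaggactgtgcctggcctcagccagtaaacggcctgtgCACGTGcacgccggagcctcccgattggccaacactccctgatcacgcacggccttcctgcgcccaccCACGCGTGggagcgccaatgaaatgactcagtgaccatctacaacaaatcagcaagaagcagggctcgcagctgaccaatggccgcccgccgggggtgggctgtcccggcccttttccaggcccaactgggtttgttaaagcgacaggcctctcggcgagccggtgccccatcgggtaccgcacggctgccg
The printed TXNIP window held 4 matches to CACGNG and 0 to the exact E-box CACGTG. A pair of them in the same direction with 5 bases between, the pattern CACGNGNNNNNCACGNG searched on both strands, lay at positions -88 to -72, counted from -1 at the base before the start. Such a pair stood in 0.057% of the 35116 promoter windows in the RefSeq table, that is in 20 windows. Pairs facing each other or facing away were also searched, and stood in 0.0228% and 0.0313% of windows, with 0 in the printed TXNIP window. Against 2 exact E-boxes 5 bases apart, the TXNIP pair matched 10 of 12 letters, and 1.01% of windows matched at least as well. The ARRDC4 window held 1 exact E-box, at positions -210 to -205, and 2 overlapping matches to CACGNG further in, but no such pair. An exact E-box was present in 7.26% of all windows and a CACGNG in 30.5%. MLX, on chromosome 17, had 1 exact E-box in its window and MLXIP, on chromosome 12, had 0 matches to CACGNG. A match is a run of letters and not evidence of binding, and a missing one concerns only this window.

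On the arrays the values were log2 signals. A row counted as above background over 7.10, a limit taken from 387 measurements of olfactory receptors, which are assumed to be silent here, at their 99th percentile. Tests covered the 10215 of 17760 named genes that reached this limit on 4 or more arrays, and between 9251 and 9474 genes did so on any single array. Within a time, pairs of arrays had a median r of 0.991 across genes. Of 9 measured markers of pluripotent stem cells, 9 were above background on at least 4 arrays, as were 10 of 12 neural plate markers, with SOX1 and ZIC1 below it on every array. Of 6 primitive streak and mesoderm markers 1 was, and TBXT, EOMES and MESP1 lay below background on all 24 arrays. Fibroblast and smooth muscle markers passed for 6 of 8 and neural crest markers for 3 of 6. From 0 to 72 h the mean level of the pluripotency list went from between 11.7 and 12.1 to between 11.3 and 11.5 over single arrays, and that of the neural list from between 8.08 and 8.64 to between 9.91 and 10.2. Single pluripotency markers went both ways in the limma fit (adjusted p under 0.05). Of 9, 4 were higher at 72 h (SOX2, LIN28A, LIN28B and SALL4) and 4 lower (POU5F1, NANOG, DPPA4 and L1TD1). NANOG fell by 2.42 and SOX2 rose by 1.13 on the log2 scale. Of 10 tested neural markers 7 were higher and 0 lower, where 35.9% of all genes were called in either direction. Since the labels do not state separate cultures for the replicates, a p-value here reflects no more than the scatter of these arrays, possibly technical. No untreated cells were sampled at later times, so time, medium and compound cannot be told apart, and the sources used here do not give the hours between a medium change and each sampling. In bulk RNA, fewer cells of a type and less RNA per cell cannot be told apart.

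Members differed widely in how bright they were on the array, and levels of different rows were not compared with each other. TXNIP had 1 row, above background on 24 of 24 arrays. ARRDC4 had 2 rows with identical values, counted as 1, which were above background on 17 of 24 arrays. For MLX, the brighter of 2 rows was above background on 24 of 24 arrays and the dimmer on 0. MLXIP had 1 row between 6.10 and 6.60, above background on 0 arrays, so it was not tested and only a bound on its level is known. The annotated loci on GRCh38.p14 are chr1:145992435-145996579 on the minus strand for TXNIP, chr15:97960703-97973833 on the plus strand for ARRDC4, chr17:42567100-42573203 on the plus strand for MLX and chr12:122078756-122147344 on the plus strand for MLXIP.

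**Figure D1:**
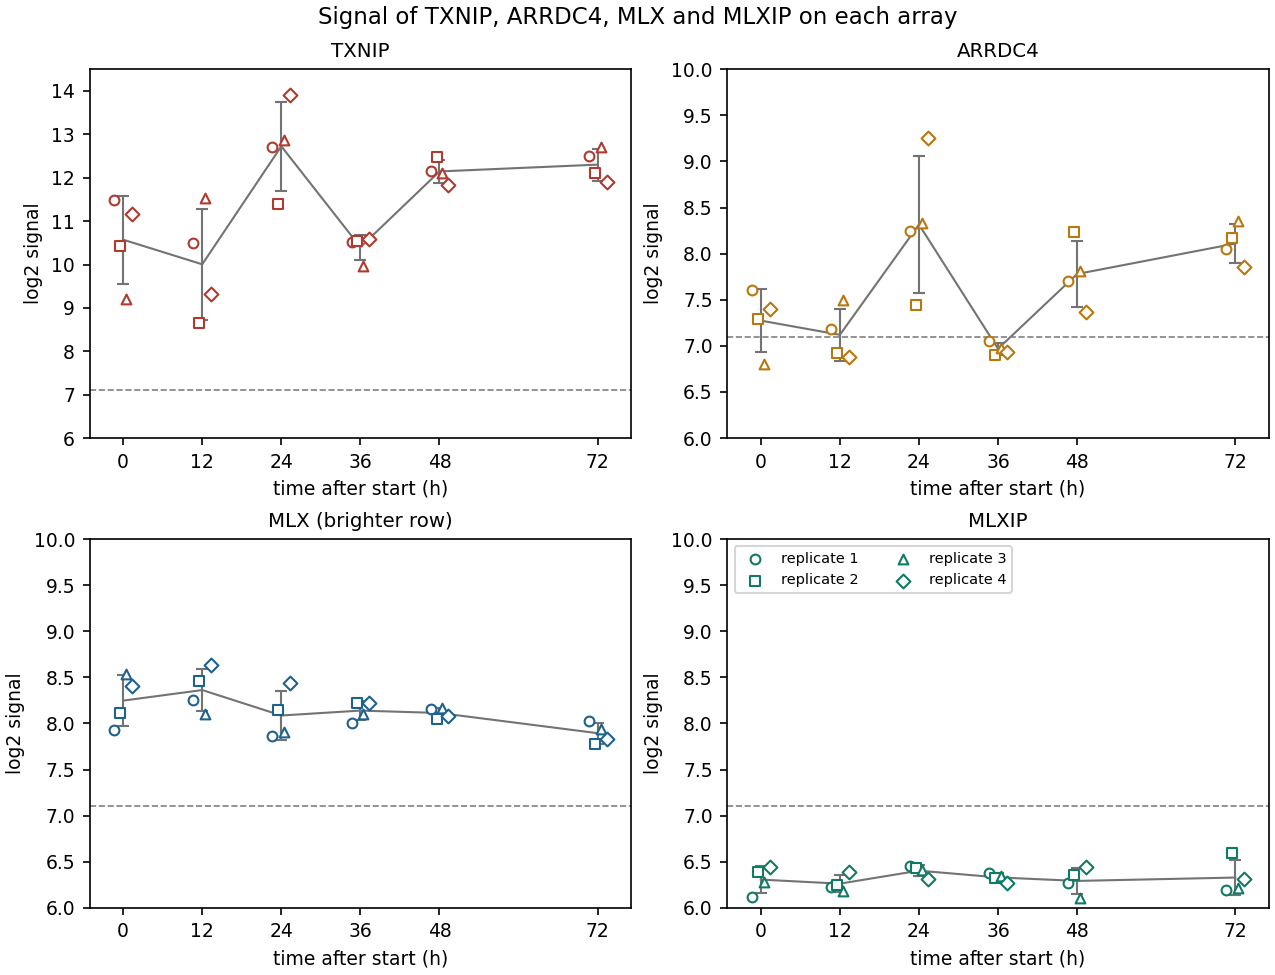
Log2 signal of TXNIP, ARRDC4, the brighter MLX row and MLXIP on each of the 24 arrays against hours of induction, with axes that differ between panels. Symbols are replicates, the grey line joins the means of 4 arrays with their SD, and the dashed line is the background of 7.10. TXNIP and ARRDC4 were low at 12 and 36 h, and high at 24, 48 and 72 h, while MLXIP stayed below the background on all arrays.

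TXNIP did not move in one direction over the induction but alternated. At 0 h its log2 signal was 11.49, 10.43, 9.21 and 11.16 in replicates 1 to 4, and by 12 h it was 10.50, 8.65, 11.54 and 9.33. The arrays of both times were widely scattered and their ranges overlapped. At 24 h the arrays read 12.71, 11.41, 12.88 and 13.90, at 36 h 10.51, 10.53, 9.98 and 10.58. All 4 arrays at 36 h lay below all 4 at 24 h, and the 36 h arrays lay close together apart from replicate 3. At 48 h the signal was 12.16, 12.48, 12.11 and 11.84, and at 72 h 12.50, 12.11, 12.71 and 11.89, all 8 above every array of 0 h.

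As means with their SD (n = 4), TXNIP was 10.57 ± 1.01 at the start, 10.01 ± 1.28 by 12 h, 12.73 ± 1.03 by 24 h, 10.40 ± 0.28 by 36 h, 12.15 ± 0.26 by 48 h and 12.30 ± 0.37 by 72 h. The order of the means was 24, 72, 48, 0, 36 and 12 h. Arrays of neighbours in this order overlapped, except between 48 and 0 h. The mean difference of 24 h from 12 h was 2.72 on the log2 scale with an SE of 0.49 (6.59-fold), with overlapping arrays. From 24 to 36 h it was -2.33 (5.01-fold lower), and from 36 to 48 h 1.75 (3.35-fold higher). Arrays did not overlap in these last 2 steps, which was also true of 17.8% and 15.3% of the tested genes. Relative to 0 h, TXNIP was 2.98-fold higher at 48 h and 3.32-fold higher at 72 h, without overlap, against 20.8% and 31.1% of tested genes with none. The 4.45-fold mean difference at 24 h rested on arrays that overlapped those of 0 h, with replicate 2 of 24 h (11.41) below replicate 1 of 0 h (11.49).

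ARRDC4 followed the same alternation at a level near background. At 0 h its arrays read 7.61, 7.29, 6.80 and 7.40 in replicates 1 to 4, and at 12 h 7.18, 6.92, 7.50 and 6.88. At 24 h they read 8.24, 7.44, 8.33 and 9.25, at 36 h 7.06, 6.90, 6.98 and 6.94. All arrays at 36 h were below background, so only an upper bound on the level is known there. At 48 h they read 7.70, 8.23, 7.81 and 7.37, and at 72 h 8.06, 8.17, 8.35 and 7.86. Each of the 12 arrays of 24, 48 and 72 h was above background, against 3 of 4 at 0 h, 2 of 4 at 12 h and 0 of 4 at 36 h. The means were 7.27 ± 0.34 (SD, n = 4) at 0 h, 7.12 ± 0.28 at 12 h, 8.32 ± 0.74 at 24 h, 6.97 ± 0.07 at 36 h, 7.78 ± 0.36 at 48 h and 8.11 ± 0.21 at 72 h. In the order 24, 72, 48, 0, 12 and 36 h of these means, the arrays of each pair of neighbours overlapped.

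The ARRDC4 difference of 24 h from 12 h was 1.20 on the log2 scale with an SE of 0.24 (2.29-fold), with overlapping arrays. From 24 to 36 h the signal became at least 2.33-fold lower, and from 36 to 48 h at least 1.60-fold higher. Both steps were without overlap, which was also true of 17.8% and 15.3% of tested genes. "At least" marks a fold computed against the background because all arrays of 1 time lay below it. At 72 h ARRDC4 was 1.78-fold above 0 h, without overlap, against 31.1% of tested genes with none. The 24 h mean was 2.06-fold above 0 h with overlapping arrays, replicate 2 of 24 h lying at 7.44 within the 0 h range.

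The contrast that sets 12 and 36 h against 24 and 48 h summarises the alternation. For TXNIP the mean of 12 and 36 h lay 2.23 log2 units below that of 24 and 48 h, with an SE of 0.35 (4.70-fold). This was the lowest of the 10215 differences tested, and the next lowest was -1.23. ARRDC4 had a difference of -1.0 with an SE of 0.17, and since its mean of 7.04 over 12 and 36 h was under the background, no fold or rank is given. TXNIP arrays overlapped by a single pair, 11.54 at 12 h in replicate 3 against 11.41 at 24 h in replicate 2. The limma fit called 2079 genes in this contrast, 20.4% of those tested, and 95% of all differences lay between -0.44 and 0.41. The members' places in this list were part of what chose them. Markers of other cell types also differed in this contrast. CNN1, a smooth muscle calponin, was higher at 12 and 36 h by 1.06 (adjusted p = 1.54e-05), AFP, an endoderm marker, by 0.83 (adjusted p = 0.0027) and TAGLN, another smooth muscle gene, by 0.50 (adjusted p = 0.0435), while SOX10 of the neural crest differed by -0.35 (adjusted p = 0.0289). These were 2 of 6 tested fibroblast and smooth muscle markers, 1 of 2 endoderm markers and 1 of 3 neural crest markers. The rest of these lists did not pass and had mixed signs. They were COL1A1 (-0.272), COL1A2 (-0.295), ACTA2 (-0.206), THY1 (0.205), CXCR4 (-0.159), FOXD3 (0.174) and NGFR (-0.127). Of 10 tested neural plate markers 1 was higher at 12 and 36 h (NES) and 3 were lower (SOX21, OTX2 and CDH2). Of 9 pluripotency markers 1 was higher (L1TD1) and 0 lower. The mean level of the fibroblast and smooth muscle list lay between 9.41 and 9.80 on the arrays of 12 and 36 h and between 9.27 and 9.48 on those of 24 and 48 h, with COL3A1 and LUM below background on every array. For the endoderm list the mean levels were 6.61 to 6.88 and 6.43 to 6.74, with SOX17, FOXA2, GATA4 and GATA6 below background on every array. For the neural crest list they were 6.69 to 6.89 and 6.74 to 6.93. The part of such cells in the members' alternation was not tested.

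**Figure D2:**
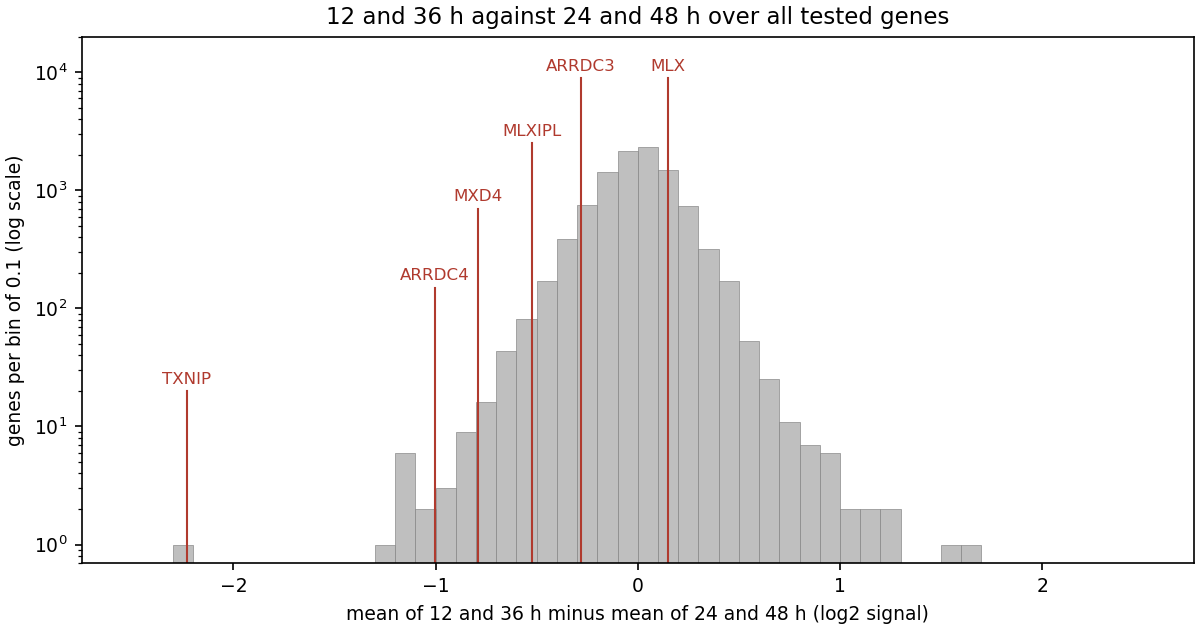
Number of tested genes, on a log axis, by the log2 difference of the mean of 12 and 36 h from the mean of 24 and 48 h, with 6 genes marked by lines whose height has no meaning. TXNIP lay at -2.23, below every other gene, and ARRDC4 at -1.0.

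MLX, the obligate partner of both glucose-sensing factors, had less spread. Its brighter row read 7.93, 8.12, 8.54 and 8.40 at 0 h and 8.03, 7.78, 7.94 and 7.83 at 72 h. Arrays of the first and last time overlapped, and the mean difference was -0.35 (95% interval -0.63 to -0.08). Time means ran from 8.36 ± 0.23 at 12 h to 7.89 ± 0.12 at 72 h, and for 12 and 36 h against 24 and 48 h the difference was 0.15 (95% interval -0.04 to 0.35). The sign of this last difference was opposite to that of TXNIP, and its dimmer row, between 6.61 and 6.98 on all arrays, gave no measurable level. MLXIP time means lay between 6.26 and 6.40, below background, so a change in MLXIP mRNA was not measurable on these arrays.

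Replicates of a time lay farther apart for TXNIP than for most genes. Its pooled SD within times was 0.82 on the log2 scale, the 11th largest of 10215 genes, against a median of 0.16, and its range over the 24 arrays was 5.25, the 7th largest. ARRDC4 had a within-time SD of 0.39 and ranked 176th. For MLX the value was 0.19, at rank 2907. The TXNIP SD was 1.28 at 12 h and 0.26 at 48 h, so the spread itself differed between times.

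TXNIP and ARRDC4 varied together from array to array. Over the 24 arrays their Pearson r was 0.92 and Spearman rho 0.94, and each gene was the other's closest match among the 10214 other genes tested. Within times the deviations from the time means correlated at r = 0.83 (rho 0.82), and ARRDC4 was 19th for TXNIP by that measure. The 24 arrays share times and preparation, and the signals of both genes on them were part of what chose the pair. The correlations and ranks are therefore descriptions and no separate support for a shared control. For example, replicate 4 of 24 h was the highest array for both genes, at 13.90 and 9.25. Replicate 3 of 12 h was the highest of its time for both, at 11.54 and 7.50, and replicate 3 of 0 h was the lowest, at 9.21 and 6.80.

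**Figure D3:**
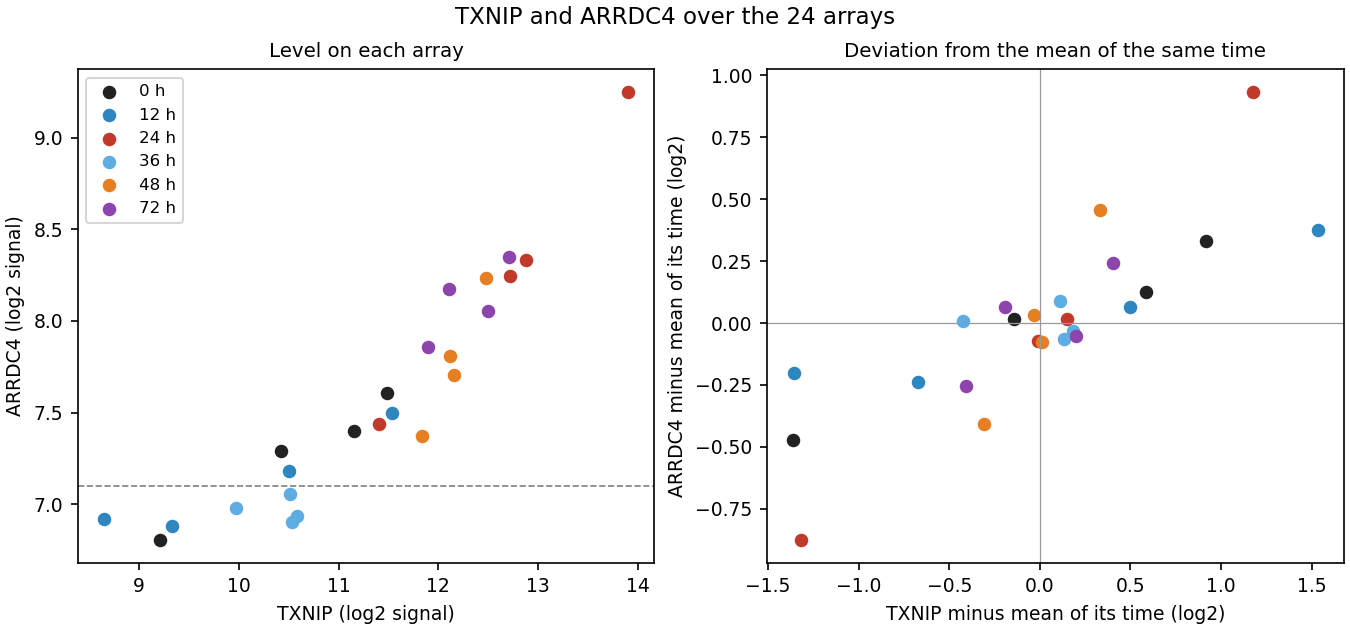
ARRDC4 against TXNIP log2 signal on each of the 24 arrays, coloured by time, with the background of 7.10 marked. Arrays of 24, 48 and 72 h lie at the upper right, and replicate 4 of 24 h is the farthest at 13.90 and 9.25.

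The genes with the array pattern most like that of TXNIP, by Pearson r over 24 arrays, were ARRDC4 (0.92), CAMLG (0.91), FAXDC2 (0.91), OPRL1 (0.90), A4GALT (0.90), VPS37D (0.89), TMOD1 (0.89) and LINC00938 (0.89). CAMLG helps insert tail-anchored proteins, OPRL1 is the nociceptin receptor, A4GALT makes the Gb3 glycolipid, VPS37D belongs to ESCRT-I and TMOD1 caps actin filaments. The lowest r values were those of ECPAS (-0.94), a proteasome adaptor, GRWD1 (-0.93) and POP1 (-0.93), a subunit of RNase P. In all, 87 genes had r of at least 0.8 with TXNIP and 122 had r of at most -0.8. By time means alone 0 of the 8 remained among the 8 most alike, and by Spearman rho 3 did. For ARRDC4 the list after TXNIP was SNAP91 (0.92, above background on 4 arrays), LEPR (0.87), MST1 (0.87), PJA2 (0.86), TP53I13 (0.86), ABCA3 (0.86) and ADPRM (0.84), and the lowest were PRMT7 (-0.88), PRKAR1B (-0.88) and RRM2 (-0.87). Those of MLX were METTL13 (0.75), NEURL2 (0.73) and SLC12A2 (0.73), and 0 genes reached 0.8.

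MLXIPL, the other partner of MLX, was above background on 24 of 24 arrays and moved with time. Its 0 h arrays read 8.21, 8.19, 7.81 and 8.04, its 24 h arrays 8.96, 8.66, 8.84 and 9.16, and its 72 h arrays 7.64, 7.48, 8.15 and 7.62. All 24 h arrays lay above all 0 h arrays, where 10.7% of tested genes had no overlap. The difference was 0.84 with an SE of 0.18 (1.79-fold, adjusted p = 0.00346 in the limma fit over all genes). MLXIPL rose from 12 to 24 h by 0.83 (adjusted p = 0.00827), a step in which 6.57% of genes were called, and fell by 0.88 from 48 to 72 h (adjusted p = 0.00217), with 6.21% called. It was lower at 12 and 36 h than at 24 and 48 h by a difference of -0.53 with an SE of 0.12 (adjusted p = 0.00444). At 72 h, when TXNIP was high, MLXIPL stood at 7.72 ± 0.30 (SD, n = 4) against 8.06 ± 0.19 at 0 h, a difference of -0.34 that did not pass (adjusted p = 0.138). With only replicates 1 and 2 the 24 h difference was 0.61 (adjusted p = 0.108), and with only replicates 3 and 4 it was 1.08 (adjusted p = 0.0681). TXNIP and MLXIPL correlated at r = 0.46 over the 24 arrays and at 0.66 within times. A second, dimmer MLXIPL row gave 0.60 with an SE of 0.15 for 24 against 0 h and -0.34 for 12 and 36 h against 24 and 48 h.

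Beyond MLXIPL, the network of MLX and MAX partners was measured by 10 tested genes other than the members. At 24 h 2 of 10 were higher than at 0 h and 0 lower, where 7.21% of all genes were called in either direction. At 72 h, the comparison with the most calls, 3 were higher (MXD3, MXD4 and MGA) and 2 lower (MYC and MYCN), against 35.9% of all genes called. In the contrast of 12 and 36 h with 24 and 48 h 4 were lower (MLXIPL, MXD4, MNT and MGA) and 0 higher, where 10.2% of all genes were called lower. MXD4, a repressor partner of MAX, stood at 9.45 ± 0.29 at 0 h, 9.61 ± 0.31 at 12 h, 10.30 ± 0.11 at 24 h, 9.69 ± 0.41 at 36 h, 10.58 ± 0.24 at 48 h and 10.66 ± 0.13 at 72 h (SD, n = 4 each). Its contrast of 12 and 36 h with 24 and 48 h was -0.79 with an SE of 0.12 (adjusted p = 0.000146), and the arrays did not overlap, which held for 1.73% of tested genes. The gap was narrow, between 10.15 in replicate 4 of 36 h and 10.16 in replicate 3 of 24 h. MYC fell by 1.11 (adjusted p = 0.00648) and MYCN fell by 0.56 (adjusted p = 0.000581) from 0 to 72 h.

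**Figure D4:**
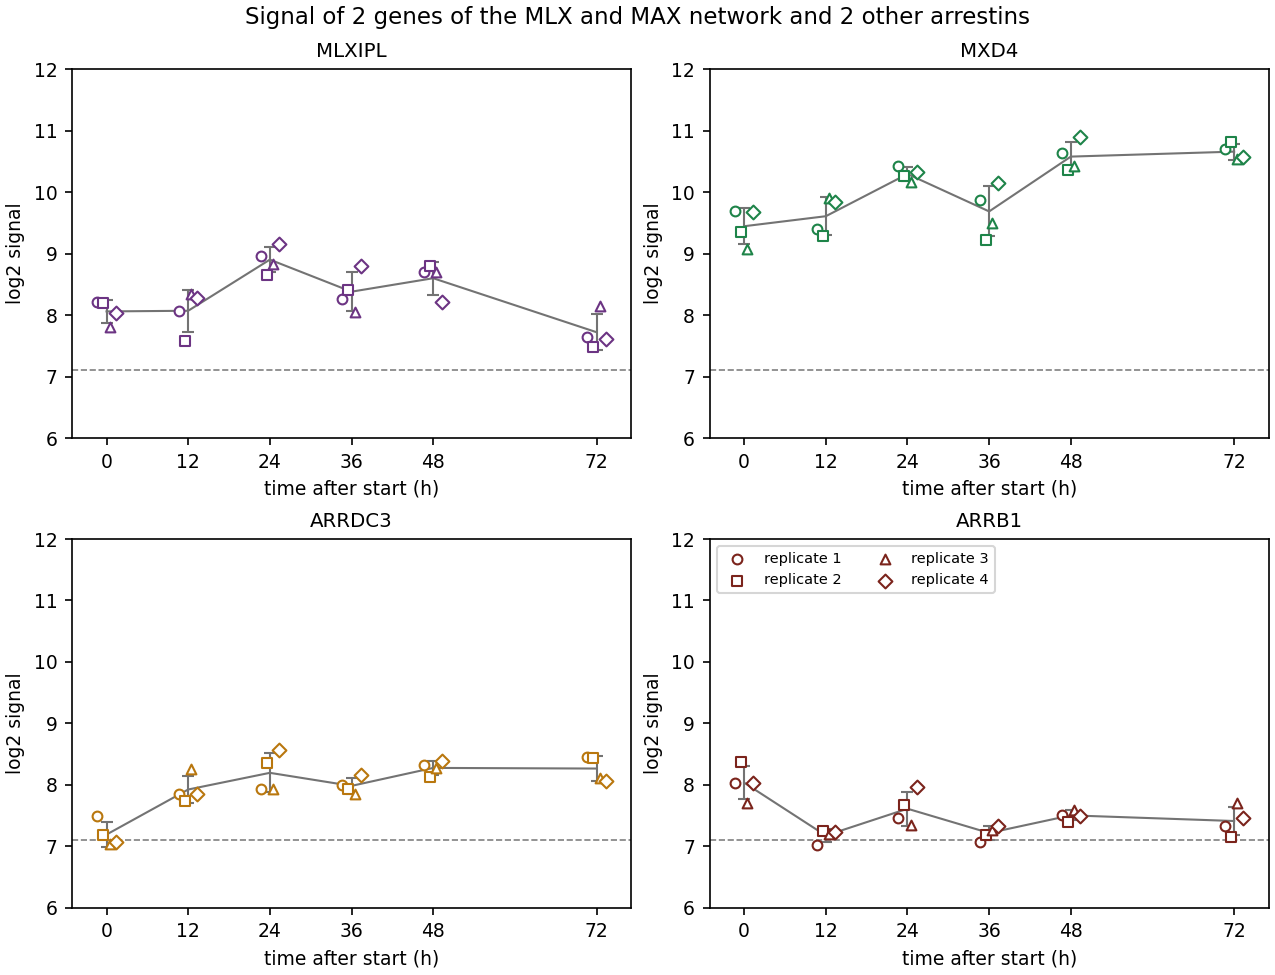
Log2 signal of MLXIPL, MXD4, ARRDC3 and ARRB1 on each array against hours of induction, with means and SD of 4 arrays and the background of 7.10 dashed. MXD4 was higher at 24 and 48 h than at 12 and 36 h on every array, with the nearest arrays at 10.16 and 10.15. ARRDC3 was higher at each later time than at 0 h.

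ARRDC3, an alpha-arrestin that acts on adrenergic receptors, read 7.49, 7.18, 7.03 and 7.07 at 0 h and 8.45, 8.44, 8.10 and 8.06 at 72 h. At 0 h 2 of 4 arrays were above background, so its differences from 0 h start from a level near background. ARRDC3 was above 0 h at all 5 later times without overlap. This was true of 8.58% of tested genes at 12 h, 10.7% at 24 h, 17.4% at 36 h, 20.8% at 48 h and 31.1% at 72 h. The difference was 0.73 at 12 h (adjusted p = 0.002, with 6.08% of genes called). At 72 h it was 1.07 with an SE of 0.14 (2.10-fold, adjusted p = 1.48e-06, with 35.9% of genes called). At 36 h, where TXNIP and ARRDC4 were low, ARRDC3 was 0.79 above 0 h (adjusted p = 0.000254), with 17% of genes called. Its contrast of 12 and 36 h with 24 and 48 h was -0.28 (adjusted p = 0.0443), the sign of TXNIP, a call lost on leaving out any of 11 single arrays, with a highest adjusted p of 0.114 without replicate 4 of 24 h. Over the 24 arrays ARRDC3 correlated with TXNIP at r = 0.58, and at 0.45 within times. Of the other alpha-arrestins, ARRDC2 differed from 0 h by -0.31 at 72 h without passing (adjusted p = 0.0519), and ARRDC1 and ARRDC5 were above background on 0 arrays. ARRB1, beta-arrestin 1, was the 1 tested gene of 4 beta and visual arrestins. It fell by 0.86 with an SE of 0.13 at 12 h (adjusted p = 0.000302) and by 0.62 at 72 h (adjusted p = 0.000608). ARRB1 also alternated as TXNIP did, with means of 7.18 ± 0.10, 7.61 ± 0.27, 7.22 ± 0.11 and 7.50 ± 0.08 (SD, n = 4) at 12, 24, 36 and 48 h. ARRB1 was above background on 3 of 4 arrays at 12 h and at 36 h, so its low means lay near background. Its contrast of 12 and 36 h with 24 and 48 h was -0.36 (adjusted p = 0.0084), or -0.14 (adjusted p = 0.169) with the mean of all its rows.

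Among other textbook targets of the glucose-sensing factors, those that passed the test at the end of induction were lower. Of 20 tested genes of that list, without the 2 arrestins, 11 were lower at 72 h than at 0 h and 0 higher, with a median difference of -0.43, where 17.4% of all genes were called lower. They were BHLHE40, HK2, ACACA, ACLY, FASN, SCD, ELOVL6, ME1, TKT, TALDO1 and G6PC3, mostly genes of fatty acid synthesis and the pentose phosphate pathway. The fatty acid elongase ELOVL6 fell by 1.14 with an SE of 0.12 (adjusted p = 5.17e-08) and the fatty acid synthase FASN fell by 1.05 with an SE of 0.14 (adjusted p = 1.35e-06). At 24 h, when TXNIP was highest, 2 of 20 were lower than at 0 h and 0 higher, where 7.21% of all genes were called. BHLHE40, a clock-linked repressor, fell by 1.43 (adjusted p = 0.0107), a call lost without replicate 2 of 72 h (adjusted p = 0.0529). In the contrast of 12 and 36 h with 24 and 48 h 4 were higher (PFKFB3, FASN, ELOVL6 and ME1) and 2 lower (KLF10 and ACACB), where 10.2% of all genes were called in each direction. Without replicate 1 or 3 of 24 h, replicate 1 of 36 h or replicate 3 of 48 h, 2 were higher. The FASN call there was lost on leaving out any of 8 single arrays, with a highest adjusted p of 0.0783 without replicate 3 of 48 h. KLF10, an early glucose-responsive regulator above background on 14 of 24 arrays, differed by -0.38 (adjusted p = 0.00951) there, the sign TXNIP had. ACACB, an acetyl-CoA carboxylase, differed by -0.39 (adjusted p = 0.0013).

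Most tested genes of glucose transporters and hexokinases were lower in mRNA at the end of induction. The known action of TXNIP is on transporter protein at the cell surface, which was not measured. Of 8 tested genes 7 were lower and 1 higher at 72 h, with a median of -0.73, where 17.4% of all genes were called lower and 35.9% in either direction. HK1 fell by 1.03 with an SE of 0.13 (adjusted p = 8.51e-07), and SLC2A6 fell by 1.23 with an SE of 0.17 (adjusted p = 2.99e-06). SLC2A1, the main glucose transporter of many cells, fell by 0.90 (adjusted p = 0.0158), a call lost without replicate 1 of 0 h (adjusted p = 0.0767) and without replicate 3 of 72 h (adjusted p = 0.0506). SLC2A3 fell by 0.61 (adjusted p = 0.00553) and its near-identical paralog SLC2A14 fell by 0.85, which the array may not separate. SLC2A10 was the 1 gene that rose, by 0.30 (adjusted p = 0.0159), and 0 genes were higher without replicate 3 of 0 h or without replicate 1 or 3 of 72 h. At 24 h 1 of 8, SLC2A6, was lower and 0 were higher, where 7.21% of all genes were called, and the SLC2A6 call was lost on leaving out either of 2 arrays (adjusted p up to 0.0624 without replicate 3 of 0 h).

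Of 19 glycolysis genes 8 were lower and 0 higher at 72 h, with a median of -0.26, where 17.4% of all genes were called lower. Without replicate 4 of 0 h 3 were lower, without replicate 2 of 72 h 4, and without replicate 1 of 0 h or of 72 h 5. ALDOC, an aldolase, fell by 1.31 (adjusted p = 4.69e-06) and the pyruvate kinase gene PKM fell by 0.89 (adjusted p = 0.000711). PFKFB3, a driver of glycolytic flux, was at -0.02 at 72 h, and was higher at 12 and 36 h than at 24 and 48 h by 0.29 (adjusted p = 0.0472), a call lost on leaving out any of 15 single arrays, with a highest adjusted p of 0.113 without replicate 2 of 36 h.

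In the thioredoxin system, to which TXNIP binds, 5 of 13 genes were lower at 72 h and 1 was higher. Over all genes 17.4% were called lower and 35.9% in either direction. TXN, thioredoxin itself, fell by 0.35 (adjusted p = 0.00241), and the mitochondrial reductase TXNRD2 fell by 1.25 with an SE of 0.19 (adjusted p = 1.41e-05). TXNRD2 was higher at 12 and 36 h than at 24 and 48 h by 0.65 (adjusted p = 0.00178), a sign opposite to that of TXNIP. The 1 gene that was higher at 72 h was MSRB2, a methionine sulfoxide reductase, by 0.47 (adjusted p = 0.0145), and the call was lost without replicate 3 of 0 h (adjusted p = 0.0632). Of the ubiquitin ligases of the NEDD4 type and their adaptors, 3 of 8 were higher at 72 h (NEDD4L, SMURF1 and HECW2). There 1 was lower (NDFIP2, 0 without replicate 4 of 0 h), where 35.9% of all genes were called in either direction. The NEDD4L call, 0.36 with adjusted p = 0.047, was lost on leaving out any of 12 single arrays, with a highest adjusted p of 0.187 without replicate 3 of 72 h, and ITCH, a ligase that targets TXNIP, differed by 0.17 without passing (adjusted p = 0.109). For AMPK, which phosphorylates TXNIP and is inhibited by dorsomorphin, 3 of 10 subunit and kinase genes were higher (PRKAA1, PRKAB1 and STRADA) and 2 lower (PRKAG2 and CAB39) at 72 h, against 35.9% of all genes called. All 5 lost their calls on leaving out single arrays. Without replicate 3 of 0 h 1 gene was higher in place of 3. STRADA kept its call there, so PRKAA1 lost its own, though PRKAA1 was not followed singly. The highest adjusted p was 0.0755 for PRKAB1 without replicate 3 of 0 h, 0.0928 for PRKAG2 without replicate 2 of 72 h, 0.0713 for STRADA without replicate 2 of 0 h and 0.102 for CAB39 without replicate 2 of 72 h. Of TXNIP's partners and stress genes, 1 of 8 was higher and 1 lower at 72 h, against 35.9% of all genes called. The mRNA of CDKN1B, a cell-cycle inhibitor whose protein TXNIP stabilises, rose by 0.58 (adjusted p = 0.000476), and the protein was not measured. This mRNA was also called higher at 12, 36 and 48 h, but not at 24 h, when TXNIP mRNA was highest. Its means were 9.42 at 12 h, 9.15 at 24 h and 9.44 at 36 h, against 8.92 at 0 h. ATF4 fell by 0.30 (adjusted p = 0.0295), a call lost on leaving out any of 4 single arrays. Its highest adjusted p was 0.101 without replicate 3 of 0 h.

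**Figure D5:**
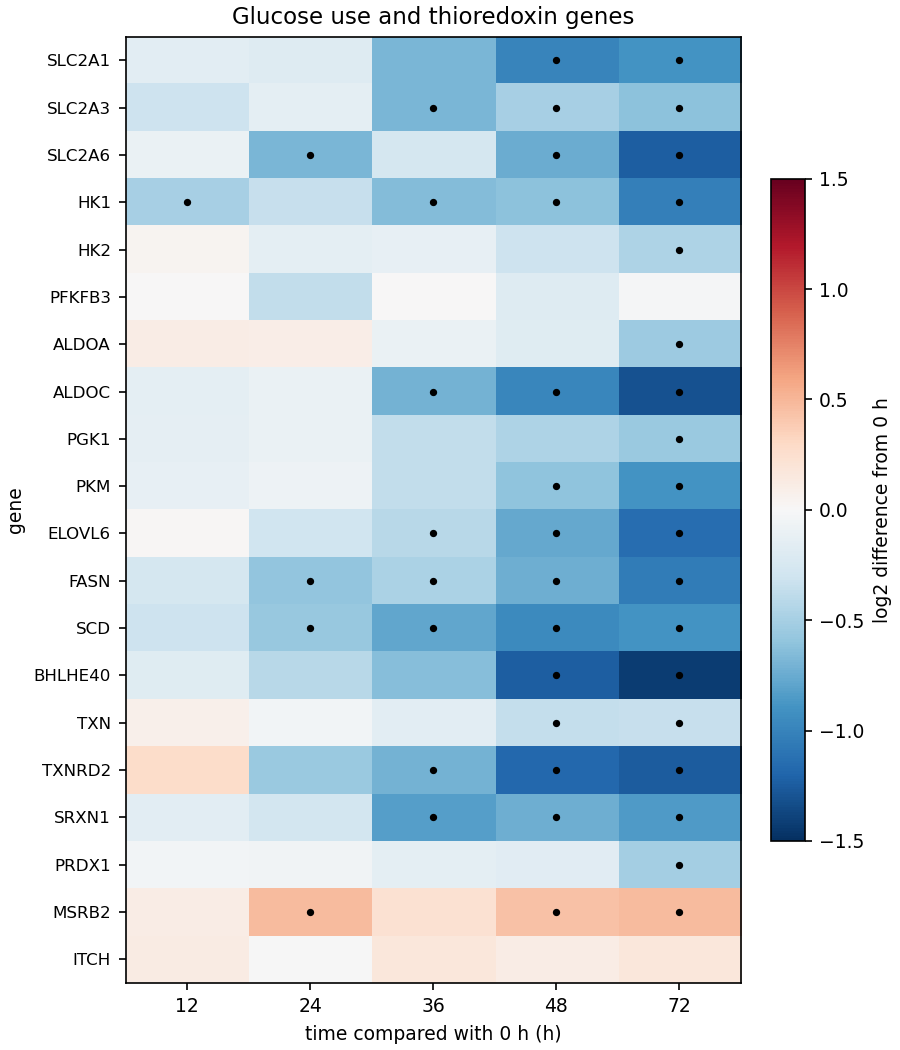
Log2 difference from 0 h, as colour, of 20 genes of glucose use, fatty acid synthesis and the thioredoxin system at 5 times, with dots where a gene passed the limma test at an adjusted p under 0.05. Most genes were lower at 48 and 72 h, down to -1.43 for BHLHE40 at 72 h, while MSRB2 was higher by 0.47.

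A group of arrays stood apart from the others of their time. On 6 arrays, 1 at each time, CLEC2A, a C-type lectin gene, was between 7.17 and 7.56, against at least 9.10 on the other 18. TXNIP lay below its time mean on 5 of these 6, with a mean deviation of -0.41 log2 units, and ARRDC4 on 4 of 6, with a mean deviation of -0.25. Replicate 2 of 24 h carried much of this, and over the other 5 the mean deviations were -0.23 and -0.12, smaller than the within-time SDs of 0.82 and 0.39. Without the 6 arrays the TXNIP contrast of 12 and 36 h with 24 and 48 h was -2.42 in place of -2.23, and that of ARRDC4 was -1.17 in place of -1.0. The part of these arrays in the results was not tested further.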

How the data were processed

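Total RNA of H1 cells was hybridised to Illumina HumanHT-12 v4 arrays, 4 for each of 6 times. The log2 values were those the authors deposited, and the sources used here do not name the scanner software, background correction or normalization. A second deposited table of intensity with detection p-values was not used, because its 48 per-sample columns match no sample label. Rows were named through the platform annotation, which gave 1 symbol for 26221 of 37900 rows, and rows with identical values counted once. The row with the highest mean stood for a gene.

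In R 4.3.3, limma 3.58.1 (lmFit, eBayes) was used to fit 6 time means to the 24 arrays, which leaves 18 residual degrees of freedom. Two-sided p-values were adjusted after Benjamini and Hochberg in each of 12 comparisons over 10215 genes, threshold 0.05. Comparisons with 0 h share its arrays. The fit was tested on simulated data. Protein comparisons were not analysed here. The members, the 10 gene lists and the contrast of 12 and 36 h with 24 and 48 h were chosen with earlier results of these data known. Genes named were the members, ARRDC1, ARRDC2, ARRDC3, MLXIPL, SLC2A1, SLC2A3, HK2, PFKFB3, TXN and ITCH, up to 4 genes per list past the threshold with the largest change from 0 h, and the most and least alike genes by Pearson r. Others were named after their values were seen: those behind small counts, the 11 lower glucose targets at 72 h, and cell type markers. Alternatives were a replicate block, other filters, the mean of a gene's rows, replicate subsets and leaving out each array. The number of arrays limits the precision.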

Additional observations from a re-analysis of the deposited data

Results flagged for a closer look

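In 96 groups of 4 arrays of the named genes at a single time, 7 had an array whose gap to the nearest other array was a large share of the group's range. Chance sets apart an array in about 1 of 20 such groups. TXNIP at 36 h in replicate 3 had a log2 signal of 9.98, with the other 3 arrays between 10.51 and 10.58. MLXIPL at 48 h in replicate 4 stood at 8.21, with the others between 8.70 and 8.80. The dimmer MLXIPL row was at 7.77 in replicate 4 of 12 h, with the others between 7.34 and 7.41, and at 8.36 in replicate 4 of 36 h, with the others between 7.57 and 7.65. SLC2A1 at 24 h was 11.16 in replicate 2 against 12.23 to 12.37. HK2 at 48 h was 9.13 in replicate 2 against 8.41 to 8.52, and ITCH at 24 h was 8.10 in replicate 2 against about 7.89 in the other 3. Replicate 4 of 12, 36 and 48 h and replicate 2 of 24 h were among the 6 arrays with the lowest CLEC2A signal. Replicate 3 of 36 h and replicate 2 of 48 h were not. The part of that group of arrays here was not tested.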

How the results depend on the processing

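TXNIP and ARRDC4 kept the sign of their 24 h difference and of the contrast of 12 and 36 h with 24 and 48 h under every alternative run that gave a value. The filter at 20 arrays left ARRDC4 untested, since 17 of its arrays were above background. With only replicates 1 and 2 the TXNIP difference of 24 h from 0 h was 1.10 and with only replicates 3 and 4 it was 3.21, and the ARRDC4 values were 0.39 and 1.69. In these subsets the genes called against 0 h numbered 173 and 31 (12 h), 105 and 103 (24 h), 824 and 409 (36 h), 678 and 1022 (48 h) and 2171 and 1616 (72 h), and 746 and 2 in the contrast of 12 and 36 h with 24 and 48 h. All arrays together called 621, 737, 1739, 2168, 3665 and 2079 genes. Leaving out each array in turn gave, from 12 to 72 h, 286 to 1004, 508 to 768, 1156 to 2083, 1748 to 2235 and 3209 to 3748 genes, and 1621 to 2406 in the contrast. It moved the TXNIP differences from 0 h at 12, 24, 36, 48 and 72 h to -1.08 to -0.11, 1.70 to 2.59, -0.63 to 0.13, 1.12 to 1.88 and 1.28 to 2.04, and the contrast to -2.49 to -2.01. For ARRDC4 these ranges were -0.31 to -0.04, 0.73 to 1.34, -0.46 to -0.19, 0.35 to 0.64 and 0.68 to 0.95, and -1.15 to -0.85. The lowest and highest 12 h counts came without replicate 4 and without replicate 3 of 0 h, and the causes were not tested.

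With the replicate number as a block the calls numbered 761, 906, 1990, 2431, 3981 and 2409. The TXNIP difference at 24 h stayed 2.15, which the balanced design fixes. Of 114 values, 108 kept their direction and call or, as counts, moved little, and the other 6 were list counts that gained a single gene. They were lower alpha-arrestins (1), higher glucose targets (1), higher thioredoxin genes (2) and lower TXNIP partners (2) at 72 h, and higher MLX network genes (1) and lower thioredoxin genes (1) in the contrast. The deviations of same-numbered arrays of different times correlated from -0.35 to 0.58 over 60 pairs. Their mean was 0.115, with 29 pairs over 0.1. Differently numbered arrays had a mean of -0.036, with 52 of 180 pairs over 0.1. The labels do not say whether the numbers pair the samples, and the main fit took no block. A part shared by same-numbered arrays was not tested. ARRDC4 near background and MLXIP below it limit what can be seen of them.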
